A study of Homo sapiens with 6 samples.

Results

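The genes described here are the chaperones and chaperonins of the count table: every protein-coding gene whose symbol begins with HSP90, HSPA, HSPB, HSPD, HSPE, HSPH, DNAJA, DNAJB or DNAJC, together with CCT2 to CCT8 and TCP1. The symbols were assigned from the Ensembl identifiers with GENCODE v44. The rule found 82 genes of 60676 entries, of which 29 were HSP genes, 45 DNAJ genes and 8 CCT genes. Every library was made from the human neuroblastoma line SK-N-BE after 1.5 days in differentiation medium with 10 µM retinoic acid. CyCoNP (LINC02381) is a long non-coding RNA, and the study asked which RNAs are recovered together with it. The 2 input libraries hold a portion of the unselected extract, the 2 CyCoNP PD libraries the RNA retrieved by native pull-down with 22 biotinylated antisense probes of 20 bases, and the 2 LacZ PD libraries the RNA retrieved with 5 probes against LacZ, a bacterial gene used as the control target. Dextran sulfate was added to both kinds of pull-down and not to the input, and the pull-down libraries were pooled from more PCR reactions than the input. The paper calls the sequenced pull-downs biological duplicates. Whether these came from separately grown cultures is not given in the sources used here, so the p-values below measure the spread between these libraries.

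Chaperones bind unfolded or partly folded proteins and help them reach or keep their native form. HSP70 proteins (HSPA genes) clamp onto short hydrophobic stretches in a cycle driven by ATP, and J-domain proteins (DNAJ genes) deliver the client and start ATP hydrolysis. HSP90 proteins act later on kinases and receptors, small HSPs (HSPB genes) hold unfolded proteins without ATP, and HSP60 with its lid HSP10 folds proteins inside mitochondria. The TRiC complex, built from TCP1 and the CCT genes with CCT2 to CCT8, encloses clients such as actin and tubulin in a double ring. The measurements here are of the mRNAs of these proteins and not of the proteins.

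The libraries held between 18870 and 1512148 counts, with the LacZ PD libraries, at 18870 and 140115, the shallowest. Levels are given as CPM (reads of the gene divided by those of the library and scaled to the same total) after TMM normalisation, in which LacZ PD 1 stood apart with a factor of 1.69 against 0.832 to 1.01 in the other libraries. On this scale 3 counts amounted to 94.0 CPM in LacZ PD 1 and 21.3 CPM in LacZ PD 2. CPM counts reads per gene and is not divided by transcript length, so levels were compared between libraries and not between genes. Confidence intervals and detection limits reflect counting error alone, because reads made by PCR without molecular identifiers are not independent molecules. The targeted CyCoNP took 27.9 and 49.2 CPM of the input, 7729 and 6811 CPM of CyCoNP PD and 53.0 and 143 CPM of LacZ PD before normalisation. All 13 sympathoadrenal and neuroblastoma markers checked had counts in both inputs, with a summed level of 5205 and 4297 CPM before normalisation, and the 3 immune markers were at 0 there. The 3 epithelial markers had at most 6 counts in either input and summed to 4.18 and 11.4 CPM. The 5 fibroblast markers summed to 508 CPM in input 1 and 37.9 CPM in input 2.

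Of the 82 genes, 65 reached 10 counts in total and were tested, namely 21 HSP, 36 DNAJ and 8 CCT genes. The other 17 were not tested, and 5 of these (DNAJB13, DNAJC5B, DNAJC5G, HSPA12A and HSPB3) had 0 counts in every library. The remaining untested genes had at most 7 counts in total and include the stress-inducible HSPA6 with 2 counts and HSPA2 with 7. Of the 65 tested genes, 24 were at 0 in LacZ PD 1 and 14 in LacZ PD 2, the shallowest libraries, against 0 and 5 in the inputs and 0 and 5 in CyCoNP PD. Within the input the 5 genes at 0 were in input 2, the deeper library. All 8 CCT genes had counts in every library. The symbol rule also takes HSPBP1 and HSPBAP1, a nucleotide exchange factor of HSP70 and a protein named for binding HSPB1, which are not heat shock proteins themselves.

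The sequences that bear on the pull-down are the stretches of chaperone mRNAs that could pair with the CyCoNP probes. They are shown for DNAJC2, which took the largest gain in reads among the 65 genes, and for DNAJA1 and DNAJC27, the only ones with a complementary stretch of 13 bases. The probes and the RNA strand of the canonical transcript (GENCODE v44, GRCh38) are written from 5′ to 3′, and capitals mark the bases that are exactly complementary.
Probe 21: aTTGCTCATTTcacttctgt
DNAJC2: gaaatAAATGAGCAAatcag
Probe 17: tcaacTTTGACCCCCAAAtg
DNAJA1: gatgtTTTGGGGGTCAAAcccaa
Probe 8: ctcaccAAGGTCTGGAACAa
DNAJC27: tgagaTGTTCCAGACCTTttata
The site in DNAJC2 covers 10 bases at chr7:103316994-103317003 on the minus strand, in the coding sequence of exon 13 of 17. The site in DNAJA1 covers 13 bases at chr9:33026514-33026526 on the plus strand, in the coding sequence of exon 2 of 9. The site in DNAJC27 also covers 13 bases of coding sequence and starts in exon 5 of 7, crossing an exon junction. A stretch of 10 or more bases was common: 58.5% of the 65 chaperone genes and 56.4% of 12528 tested genes with an annotated transcript had one. A stretch of 13 or more bases was present in 1.54% of those genes and in 2 of the 65. A match of letters is a description and not a shown site of pairing.

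DNAJC2 (ENSG00000105821), at chr7:103312289-103344830 on the minus strand of GRCh38, encodes a J-domain protein that sits on the ribosome, where it works with HSP70 on newly made chains. It had 48 and 50 counts in the input, CyCoNP PD held 556 and 511, and LacZ PD 2 and 15. After normalisation these were 70.0 and 75.2 CPM in the input, 442 and 1126 CPM in CyCoNP PD, and 62.7 and 106 CPM in LacZ PD. Both CyCoNP PD libraries lay above all 4 of the others, while LacZ PD overlapped the input. The mean input level was 72.6 ± 3.69 CPM (SD, n = 2) and that of CyCoNP PD 784 ± 484 CPM (SD, n = 2), 10.7-fold apart in the fit, with a log2 fold change of 3.43 (SE 0.70). A gene was called enriched or depleted at an adjusted p under 0.05 together with a log2 fold change beyond 1 in size. By edgeR's quasi-likelihood test, adjusted after Benjamini-Hochberg over 12565 genes, DNAJC2 had an adjusted p of 0.0849 and ranked 33 by p, so it was not called. With the replicate number as a block the log2 fold change was 3.28 (edgeR adjusted p = 6.72e-06), which passed the threshold, as did DESeq2 (3.38, adjusted p = 0.000314) and DESeq2 with the block (3.21, adjusted p = 2.97e-06). The fit without the block left 3 residual degrees of freedom and the block left fewer, so these p-values rest on spread estimates shared across genes. The pairing behind the block was itself taken from these counts.

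Against LacZ PD, the log2 fold change of DNAJC2 in CyCoNP PD was 3.11 (SE 0.75, edgeR adjusted p = 0.305). The value passed the threshold with the block (3.14, adjusted p = 0.00181) and with DESeq2 (2.96, adjusted p = 0.0216). In LacZ PD against input it was 0.32 (SE 0.73, edgeR adjusted p = 0.901), with 2 counts in LacZ PD 1, under the limit of 3. The CyCoNP PD libraries disagreed on the size. Without CyCoNP PD replicate 2 the log2 fold change against input was 2.60 (edgeR adjusted p = 0.233), and without CyCoNP PD replicate 1 it was 3.98 (adjusted p = 0.00359). Each of these fits has 1 CyCoNP PD library, which is assumed to vary like those of the other groups, so its p carries no replicate check of CyCoNP PD. The gene took 17.2% of all DNAJ counts in CyCoNP PD 1 (95% Wilson interval 15.9 to 18.5) and 40.5% in CyCoNP PD 2 (37.8 to 43.2), against 3.46% and 4.16% in the inputs and 3.33% and 7.04% in LacZ PD.

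DNAJC2 overlaps 2 genes on the opposite strand, PMPCB, a subunit of the mitochondrial processing peptidase, and PSMC2, an ATPase of the proteasome. Whether the counting used strand is not given in the sources used here, so reads at the overlaps cannot be assigned with certainty. The same holds for HSPD1 and HSPE1, which overlap each other on opposite strands, and for DNAJC9, which overlaps FAM149B1. PMPCB had 214 and 488 counts in the input and 396 and 146 in CyCoNP PD, with a log2 fold change of -0.72 (SE 0.63). PSMC2 had 37 and 33 counts in the input and 133 and 47 in CyCoNP PD, with a log2 fold change of 1.01 (SE 0.60). Neither passed edgeR's test in CyCoNP PD against input (adjusted p = 0.999 for each).

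**Figure D1:**
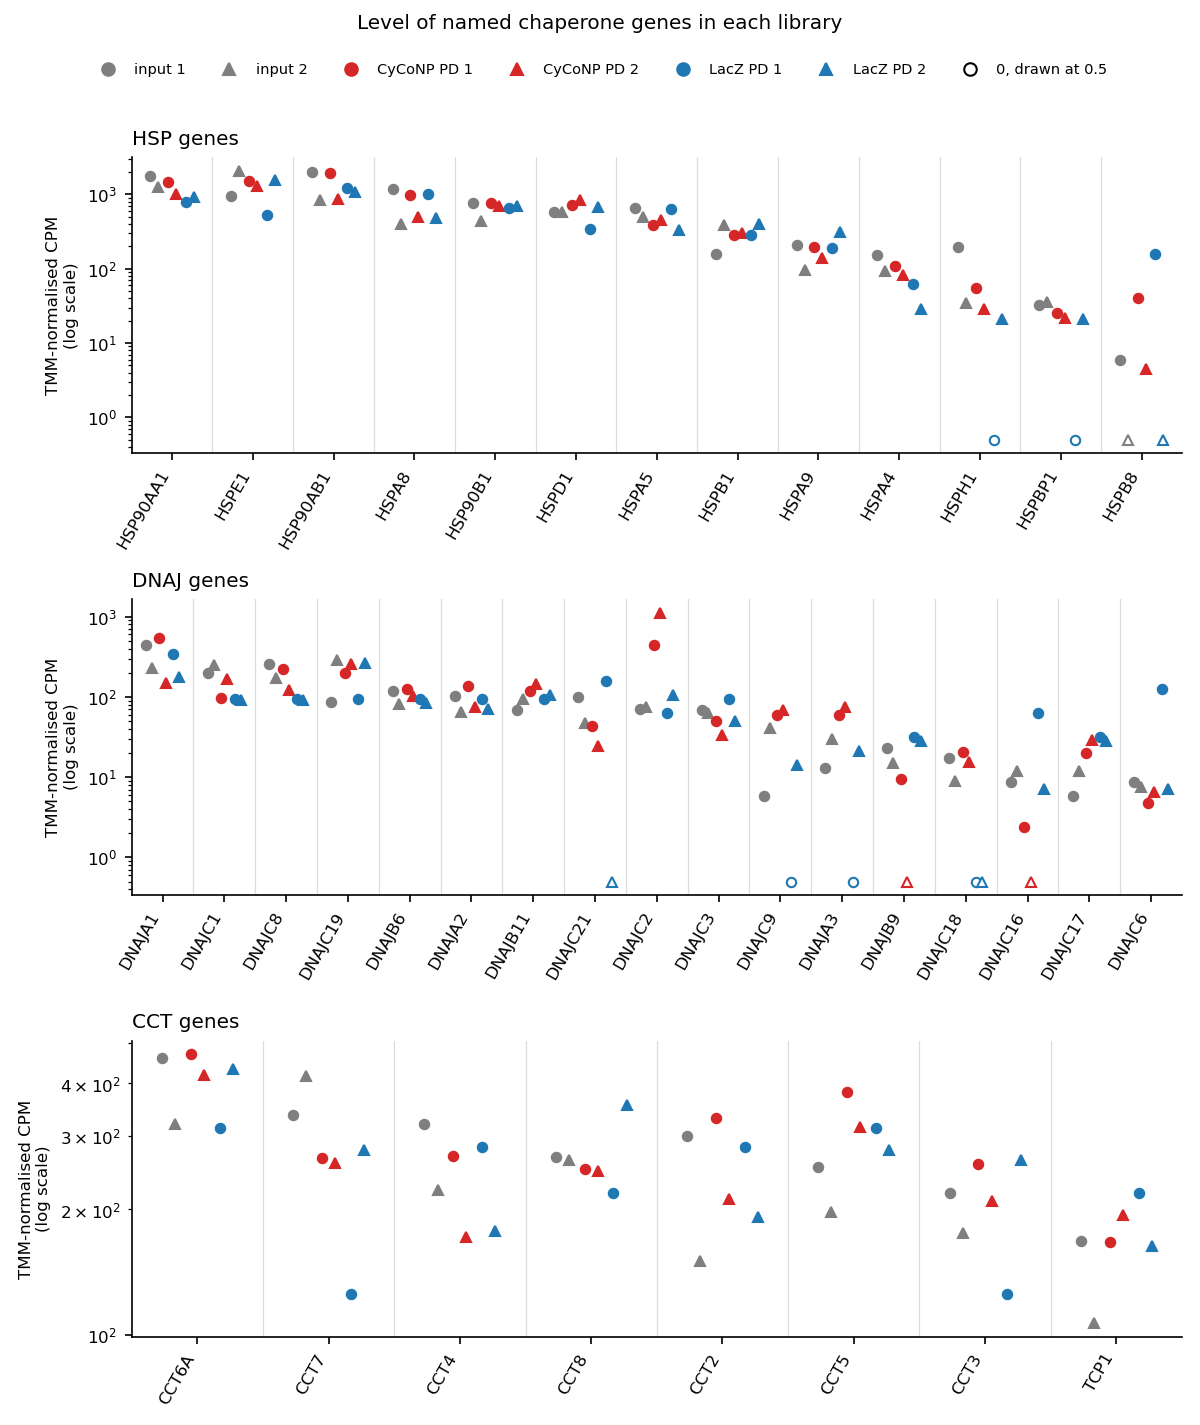
TMM-normalised CPM (log scale) of the 38 chaperone genes named by the fixed rule, for HSP, DNAJ and CCT genes, ordered by their mean in the input. Grey, red and blue mark input, CyCoNP PD and LacZ PD, circles replicate 1, triangles replicate 2 and open symbols a value of 0; DNAJC2 lies at 442 and 1126 CPM in CyCoNP PD, above its 4 other values.

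Apart from DNAJC2 no chaperone mRNA was called in CyCoNP PD against input with any of the tools run. In edgeR's test 0 of the 65 genes were enriched and 0 were depleted, where 0.119% and 0.00796% of all 12565 genes were called. At an unadjusted p under 0.05, 2 of the 65 were higher, DNAJC2 and DNAJA3 (3.06% of all genes), and 0 were lower (2.32% of all genes). With the replicate block these counts were 5 (5.4% of all genes), namely DNAJC2, HSPB8, DNAJC9, DNAJA3 and DNAJC30, and 4 (5.19%), namely HSPH1, DNAJB9, DNAJC16 and HSPA13. DESeq2 called 1 of 65 enriched (0.462% of all genes) and 0 depleted (0.111%). With the block in edgeR the counts were also 1 (1.51% of all genes) and 0 (0.724%). In both CyCoNP PD libraries above both inputs were 12 of the 65 genes, against 17.2% of all genes, and 17 lay below both, against 18.6% of all genes.

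The J-domain proteins other than DNAJC2 showed values in both directions. DNAJA3, a mitochondrial partner of HSPA9, had 13.1 and 30.1 CPM in the input, 58.8 and 74.9 CPM in CyCoNP PD, and 0 and 21.3 CPM in LacZ PD. Both CyCoNP PD libraries were higher than both inputs and LacZ PD 2, with a log2 fold change against input of 1.61 (SE 0.71, unadjusted p = 0.040, edgeR adjusted p = 0.873). In LacZ PD 1 the limit of 3 counts is 94.0 CPM, above both CyCoNP PD values, so the 0 there cannot be compared with them. DNAJC9, a histone chaperone, had 5.83 and 40.6 CPM in the input, 58.8 and 68.3 CPM in CyCoNP PD, and 0 and 14.2 CPM in LacZ PD. Its inputs differed more from each other than input 2 did from CyCoNP PD, and the log2 fold change was 1.44 (SE 0.80). DNAJC17 had 5.83 and 12.04 CPM in the input and 19.9 and 28.7 CPM in CyCoNP PD, and 31.3 and 28.4 CPM in LacZ PD, where the 31.3 CPM are 1 count, under the limit of 3.

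Among the J-domain genes lower in CyCoNP PD than in either input were DNAJB9 and DNAJC16, both from few counts. DNAJB9, a cofactor of the endoplasmic reticulum (ER) HSP70 HSPA5, had 23.3 and 15.05 CPM in the input, 9.53 and 0 CPM in CyCoNP PD and 31.3 and 28.4 CPM in LacZ PD (log2 fold change against input -1.70, SE 0.99), where the 31.3 CPM are 1 count, under the limit of 3. DNAJC16 had 8.75 and 12.04 CPM in the input, 2.38 and 0 CPM in CyCoNP PD and 62.7 and 7.09 CPM in LacZ PD (-2.57, SE 1.31), where the 62.7 CPM are 2 counts. The edgeR adjusted p was 0.999 for each. DNAJC1, an ER membrane J-domain protein with 137 and 166 input counts, had 200 and 250 CPM in the input, 97.7 and 167 CPM in CyCoNP PD and 94.0 and 92.2 CPM in LacZ PD, so both pull-downs lay below both inputs. Its log2 fold changes were -0.77 (SE 0.60) and -1.27 (SE 0.68), and neither was called.

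No other DNAJ gene with many reads was called. DNAJA1, a cytosolic partner of HSPA8, had 449 and 230 CPM in the input, 536 and 148 CPM in CyCoNP PD, and 345 and 177 CPM in LacZ PD. In each group replicate 1 was the higher, and the log2 fold change against input was 0.02 (SE 0.71). DNAJC27 had only 8 counts in the input and 3 in CyCoNP PD. DNAJC19, of the inner mitochondrial membrane, had 87.5 and 284 CPM in the input and 199 and 256 CPM in CyCoNP PD, which lie between them. DNAJC8, a splicing-associated protein, DNAJB6, which suppresses aggregation, DNAJA2, DNAJB11, DNAJC3 and DNAJC21 had log2 fold changes from -1.09 to 0.68 in CyCoNP PD against input, each with an SE from 0.59 to 0.95.

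**Figure D2:**
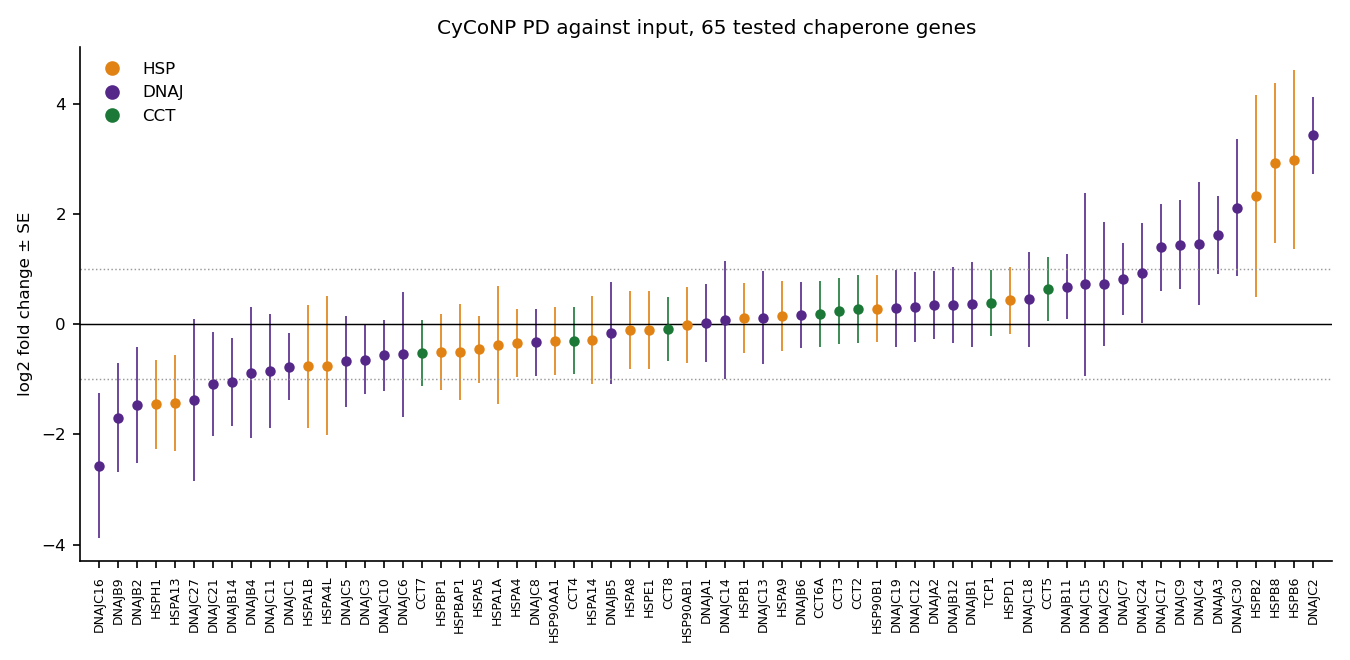
Log2 fold change ± SE of CyCoNP PD against input from the edgeR fit for the 65 tested chaperone genes, in order of size and coloured by family, with dotted lines at -1 and 1. DNAJC2 lies at the right end at 3.43, followed by HSPB6, HSPB8, HSPB2 and DNAJC30, whose error bars are wider, and the 8 CCT genes lie between -0.52 and 0.63.

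The cytosolic HSP90 mRNAs were higher in replicate 1 of input and CyCoNP PD. HSP90AA1, the inducible form, had 1785 and 1267 CPM in the input, 1451 and 1020 CPM in CyCoNP PD, and 783 and 929 CPM in LacZ PD. After normalisation both of its LacZ PD values lay below all 4 others, while CyCoNP PD overlapped the input. Before normalisation the groups overlapped, with 1705 and 1063 CPM in the input, 1208 and 899 CPM in CyCoNP PD, and 1325 and 935 CPM in LacZ PD. HSP90AB1, the constitutive form, had 2020 and 841 CPM in the input, 1961 and 877 CPM in CyCoNP PD, and 1222 and 1078 CPM in LacZ PD. The HSP90AB1 pairs of input and CyCoNP PD nearly coincided, and its log2 fold change was -0.01 (SE 0.69). For HSP90AA1 it was -0.30 (SE 0.62) against input and -0.83 (SE 0.63) in LacZ PD. HSP90B1, the ER form, had a log2 fold change of 0.28 (SE 0.61) in CyCoNP PD.

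Among HSP70 mRNAs, the constitutive HSPA8 had 1198 and 405 CPM in the input, 982 and 502 CPM in CyCoNP PD, and 1003 and 475 CPM in LacZ PD. All 3 groups spanned nearly the same range. HSPA5, the ER form, had 661 and 492 CPM in the input and 388 and 454 CPM in CyCoNP PD, both below, with a log2 fold change of -0.45 (SE 0.61). HSPA9, the mitochondrial form, had 0.15 (SE 0.63). The stress-inducible HSPA1A and HSPA1B, near-identical genes whose reads can be split between them, had 10 and 6, and 9 and 5 counts in the inputs and 0 in both LacZ PD libraries, where 3 counts over both would be 17.4 CPM, above their level in the other groups. Their absence from LacZ PD was therefore not detectable as a difference at this depth.

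HSPH1, the HSP110 exchange factor, had the largest ratio of input 1 to input 2 among the 45 genes with at least 20 input counts, at 198 and 34.6 CPM. It had 54.8 and 28.7 CPM in CyCoNP PD, and 0 and 21.3 CPM in LacZ PD, where the limit in LacZ PD 1 is 94.0 CPM. The log2 fold change in CyCoNP PD was -1.45 (SE 0.80) and became 0.29 without input replicate 1. All 7 tested genes of cytosolic HSP70 and HSP110 had a log2 fold change below 0 in CyCoNP PD against input, from -1.45 to -0.11, and 0 of them were called. All 7 were also below 0 in LacZ PD against input, as 8404 of all 12565 genes were, and 3 of them (HSPA1A, HSPA1B and HSPA4L) had 0 counts in both LacZ PD libraries. Between the replicate 2 libraries of CyCoNP PD and input HSPA8 (0.31) and HSPA1B (0.16) were above 0. These values share the inputs and are not independent of each other.

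HSPE1 (HSP10) and HSPD1 (HSP60), mitochondrial partners annotated on opposite strands with overlapping gene spans, differed in how their replicates behaved. HSPE1 had 950 and 2083 CPM in the input, 1529 and 1287 CPM in CyCoNP PD, and 533 and 1575 CPM in LacZ PD. HSPD1 had 573 and 588 CPM in the input, 716 and 851 CPM in CyCoNP PD, and 345 and 681 CPM in LacZ PD. After normalisation both CyCoNP PD libraries of HSPD1 lay above the 4 others, by a log2 fold change of 0.43 (SE 0.61) against input, which is smaller than its error. Before normalisation CyCoNP PD 1 (596 CPM) lay below LacZ PD 2 (685 CPM). Of 6 genes listed as mitochondrial, 5 had a log2 fold change above 0 in CyCoNP PD against input (median 0.36), where 49.4% of all genes did. Of 9 listed as ER genes 3 did (median -0.56), with 0 called in either. Neither list holds every chaperone gene of its compartment, so the medians describe the listed genes alone.

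Small HSPs had few reads apart from HSPB1, which had 156 and 387 CPM in the input and 284 and 304 CPM in CyCoNP PD (log2 fold change 0.11, SE 0.63). HSPB8 had 4 and 0 counts in the input, CyCoNP PD held 51 and 2 and LacZ PD 5 and 0, so that its reads came almost wholly from replicate 1 in every group. Its log2 fold changes of 2.93 (SE 1.45) in CyCoNP PD and 3.98 (SE 1.83, unadjusted p = 0.047) in LacZ PD rest on those libraries. HSPB6 had 1 and 0 counts in the input and 8 and 4 in CyCoNP PD.

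The log2 fold changes of the chaperonin mRNAs spanned the narrowest range of the 3 families in each comparison. This family is also the smallest, and 0 of its genes had under 20 input counts, against 6 HSP and 14 DNAJ genes tested. At 100 or more input counts, the 7 DNAJ genes ran from -0.77 to 0.68 in CyCoNP PD against input. Against LacZ PD they ran from 0.23 to 0.88, and the 8 CCT genes from -0.25 to 0.30. CCT5 had 252 and 197 CPM in the input, 382 and 315 CPM in CyCoNP PD, and 313 and 277 CPM in LacZ PD, so both pull-downs lay above both inputs, with log2 fold changes of 0.63 (SE 0.58) and 0.38 (SE 0.61). CCT7 went the other way, with 336 and 417 CPM in the input, 266 and 258 CPM in CyCoNP PD, and 125 and 277 CPM in LacZ PD (-0.52, SE 0.61, and -0.82, SE 0.64). CCT5 and CCT7 thus lay on opposite sides of the input, and neither difference passed the test.
CCT6A had 461 and 321 CPM in the input and 470 and 419 CPM in CyCoNP PD. CCT2 had 299 and 150 CPM in the input and 331 and 212 CPM in CyCoNP PD. CCT3, CCT4, CCT8 and TCP1 had log2 fold changes of 0.24, -0.30, -0.09 and 0.39, each with an SE of 0.59 to 0.61. Within the complex, 0 of 8 genes had a fitted difference beyond 2-fold in any of the 3 comparisons. Of all genes, 28.0% did in CyCoNP PD against input, 53.5% in LacZ PD against input and 49.9% in CyCoNP PD against LacZ PD. All 8 had at least 100 counts summed over the inputs, and among the 2137 genes with that many, 18.0%, 36.7% and 22.8% did. At that count, 0 of 7 DNAJ and 1 of 11 HSP genes were beyond 2-fold in CyCoNP PD against input. In LacZ PD against input 2 of 7 and 2 of 11 were, and in CyCoNP PD against LacZ PD 0 of 7 and 2 of 11. DNAJC2 was just under that count and is not among the 7.

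Summed over each family, before normalisation, HSP genes took 0.843% and 0.574% of the input counts, 0.714% and 0.558% of CyCoNP PD, and 0.996% and 0.662% of LacZ PD. Replicate 1 was the higher in each group on this scale. After TMM normalisation the HSP sum was 5892 CPM in LacZ PD 1 and 6576 CPM in LacZ PD 2, the opposite order. CCT genes took 0.222% and 0.155% of the input, 0.199% and 0.178% of CyCoNP PD, and 0.318% and 0.215% of LacZ PD, so CyCoNP PD lay inside the range of the input. After normalisation CyCoNP PD (2391 and 2025 CPM) overlapped the input (2321 and 1852 CPM), and LacZ PD 1 (1880 CPM) was below LacZ PD 2 (2135 CPM). DNAJ genes took 0.193% and 0.152% of the input and 0.214% and 0.245% of CyCoNP PD, higher in both. In LacZ PD they took 0.318% and 0.152%, so that LacZ PD 1 lay above both CyCoNP PD libraries and LacZ PD 2 at the level of input 2. After normalisation the DNAJ sum was 2023 and 1809 CPM for the input, 2572 and 2781 CPM for CyCoNP PD and 1880 and 1511 CPM for LacZ PD, so CyCoNP PD was then the highest group. Without DNAJC2, an alternative chosen after its values were seen, the DNAJ shares were 0.187% and 0.145% in the input and 0.177% and 0.146% in CyCoNP PD, which overlap.

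The families were set side by side by the medians of their tested genes, beside those over all genes. In CyCoNP PD against input the median log2 fold change was -0.29 for HSP, 0.14 for DNAJ and 0.21 for CCT genes, and -0.01 over all 12565. Among genes with at least 100 input counts it was -0.11 for HSP, 0.16 for DNAJ and 0.21 for CCT genes and -0.14 over all, so HSP genes were then not below the rest. Of all tested genes of the families, 7 of 21, 21 of 36 and 5 of 8 were above 0. Set against the input of the same number, the median log2 ratio in CyCoNP PD 1 and 2 was -0.085 and -0.082 for HSP, 0.17 and -0.0094 for DNAJ, and 0.0093 and 0.31 for CCT genes. HSP genes were thus the lowest in both pairs, and the order of DNAJ and CCT genes changed between them. Set against the mean of both inputs, the medians were 0.12 and -0.33 for HSP, 0.24 and -0.16 for DNAJ, and 0.30 and 0.04 for CCT genes. Without input replicate 1 the HSP median was 0.048 and without CyCoNP PD replicate 2 it was -0.0026. Without input replicate 2 the DNAJ median was -0.080 and the CCT median -0.079, and without CyCoNP PD replicate 1 they were -0.14 and 0.027.

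In LacZ PD against input the medians were -0.83 for HSP, -0.21 for DNAJ and 0.04 for CCT genes, and -0.68 over all genes. At 100 or more input counts they were -0.30, -0.20 and 0.04, and -0.55 over all, which puts HSP genes above the rest instead of below. In edgeR 0 of 65 genes were enriched (0.0% of all genes) and 0 depleted (0.0%). At an unadjusted p under 0.05, 1 was higher, HSPB8 (0.74% of all genes), and 1 lower, HSPH1 (6.26% of all genes). DESeq2 called 0 of the 65 in either direction, where it called 0.0557% of all genes enriched and 0.374% depleted. The block in edgeR also gave 0, with 0.127% of all genes enriched and 0.796% depleted. Both LacZ PD libraries lay below both inputs for 18 of the 65 genes, against 39.9% of all genes, and above them for 5, against 5.75%. HSPA4, a further HSP110-type gene, had 152 and 93.3 CPM in the input and 62.7 and 28.4 CPM in LacZ PD, with a log2 fold change of -1.67 (SE 0.80, edgeR adjusted p = 0.718).

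In CyCoNP PD against LacZ PD the medians were 0.56 for HSP, 0.36 for DNAJ and 0.21 for CCT genes, and 0.64 over all genes. At 100 or more input counts they were 0.31, 0.44 and 0.21, and 0.38 over all, with DNAJ genes above HSP genes. This comparison shares its CyCoNP PD libraries with the first and its LacZ PD libraries with the second. In edgeR 0 of 65 genes were enriched (0.0% of all genes) and 0 depleted (0.0%), and at an unadjusted p under 0.05, 2 were higher, DNAJC2 and DNAJC18 (4.69% of all genes), and 2 lower, DNAJC16 and DNAJC6 (0.47% of all genes). The targeted CyCoNP itself was not called in this edgeR test either (log2 fold change 6.39, SE 0.94, adjusted p = 0.0798), but was with DESeq2 and with the block. With these DNAJC2 was the 1 chaperone gene called, where 0.287% and 0.716% of all genes were called enriched. Depleted were 0 of the 65 with either, where 0.0159% and 0.0478% of all genes were. DNAJC18 had 0 counts in both LacZ PD libraries and 19.3 CPM over CyCoNP PD. With 3 counts over both LacZ PD libraries taken as the limit (17.4 CPM), CyCoNP PD was at least 1.11-fold higher. Before normalisation it was under that limit (16.3 and 18.9 CPM). DNAJC6, a clathrin-uncoating J-domain protein of neurons, had 4 and 1 counts in LacZ PD, and its 125 CPM in LacZ PD 1 were those 4 counts. Both CyCoNP PD libraries lay above both LacZ PD libraries for 24 of the 65 genes, against 35.8% of all genes, and below for 3, against 4.26%.

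The replicates of a group differed for many chaperone mRNAs beyond counting error. The intervals and ratios that follow were taken before TMM normalisation. The 95% Wilson intervals of input 1 and input 2 did not overlap for 25 of the 65 genes, against 20.4% of all tested genes, and for 6 of the 8 CCT genes. In CyCoNP PD this held for 15 of 65, against 20.3% of all genes, and in LacZ PD for 8 of 65, against 4.65%. Such intervals are narrower relative to the level for genes with more counts, and these shares were not matched for counts. The CCT genes had 186 to 529 counts summed over the inputs, and the tested genes include many with far fewer. Whether chaperone genes differed more between replicates than other genes of similar counts was therefore not tested by these shares. Among the 45 chaperone genes with at least 20 input counts, 35 were higher in input 1, with a median log2 ratio of 0.71, against 3541 of 6161 protein-coding genes with as many counts and a median of 0.14. The TMM factors of 0.955 for input 1 and 0.839 for input 2 would lower every one of these log2 ratios by the same amount. The difference went with transcript length, with a Spearman correlation of 0.53 across these 45 genes and 0.30 across 6161 protein-coding genes with as many counts. HSPE1 (557 bases), HSPB1 (777 bases) and DNAJC19 (1416 bases) were higher in input 2, and HSPH1 (5244 bases) was 2.68 higher in input 1 on the log2 scale. In CyCoNP PD the correlation was 0.062 across 50 chaperone genes and 0.083 across 6822 protein-coding genes, and in LacZ PD it was 0.48 across 19 and 0.34 across 1092. Genes of 1 library share its preparation and depth, so these correlations describe the libraries and carry no test.

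**Figure D3:**
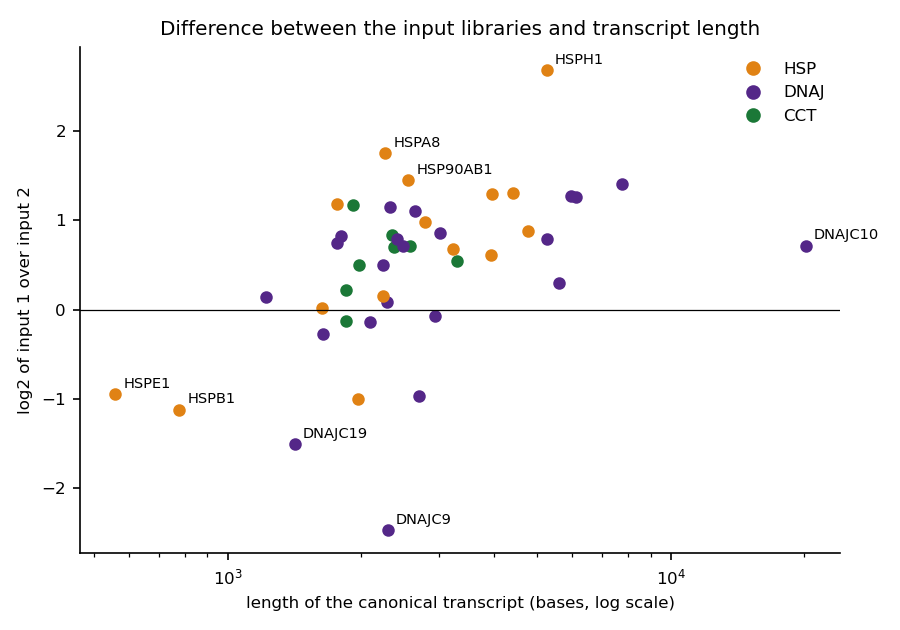
Log2 ratio of input 1 to input 2 in CPM before TMM normalisation for the 45 chaperone genes with at least 20 input counts, against the length of the canonical transcript in bases (log scale), coloured by family. Short transcripts such as HSPE1 and HSPB1 lie below 0 and HSPH1 lies highest, at 2.68, while DNAJC9 lies lowest, at -2.47.

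Processed pseudogenes of the chaperones, copies of their mRNAs in the genome, also took reads, and a larger share of them in replicate 1 of each group. HSP90AB3P had 211 and 2 counts in the input and 122 and 0 in CyCoNP PD. HSPA5P1 had 67 and 2, and 34 and 0. Over 51 such pseudogene entries, 11.6% of the reads of pseudogenes and parent genes together fell on pseudogenes in input 1 and 3.87% in input 2. The share was 7.57% for CyCoNP PD 1 but 1.06% for CyCoNP PD 2, and 3.38% for LacZ PD 1 but 0.495% for LacZ PD 2. All 10135 processed pseudogene entries of the table together took 9.72% and 8.17% of the library's counts in the inputs, 8.61% and 5.43% in CyCoNP PD, while LacZ PD had 8.28% and 7.18%, a smaller difference between replicates.
HSPA8P8 and DNAJB6P1 were exceptions, with 113 and 115, and 50 and 40 counts in the inputs. DNAJB6P1 took 159 counts in CyCoNP PD 1, where DNAJB6 itself had 157, and how reads were divided between such copies and DNAJB6, HSPA8 and HSP90AB1 was not tested. Of 5 fibroblast markers, the 3 collagen genes were higher in replicate 1 of each group. COL1A1 had 280 and 15.05 CPM in the input, 148 and 6.61 CPM in CyCoNP PD, and 125 and 7.09 CPM in LacZ PD. LUM was higher in replicate 2 of each group, with 11.7 and 22.6 CPM in the input and 6.36 and 44.1 CPM in CyCoNP PD, and DCN had at most 6 counts in any library. The sum over the 5 genes ranged from 327 to 508 CPM before normalisation in the replicate 1 libraries and from 21.4 to 62.2 CPM in the replicate 2 libraries. The part of any of these in the chaperone values was not tested.

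Of 44 other folding genes on a fixed list, all were tested and 0 were called in edgeR's main comparisons (0.119% of all genes enriched in CyCoNP PD against input). Their median log2 fold change in CyCoNP PD against input was 0.21, with 27 above 0 and 17 below, where 49.4% of all genes were above 0. BAG3, a co-chaperone that links HSP70 to HSPB8, had 5 and 11 counts in the input and 101 and 153 in CyCoNP PD, whereas LacZ PD held 1 and 3. Its log2 fold change against input was 4.09 (SE 0.84, edgeR adjusted p = 0.0849), and it was called with DESeq2 (adjusted p = 0.00809) and with the block (3.95, edgeR adjusted p = 8.65e-08), as the only gene of this list, where 0.462% and 1.51% of all genes were called. Against LacZ PD its log2 fold change was 3.10 (SE 0.99, edgeR adjusted p = 0.692), which was called with the block (3.39, adjusted p = 0.0150) and not with DESeq2. After normalisation, both CyCoNP PD libraries lay above all input and LacZ PD libraries for 9 of the 65 chaperone genes, DNAJC2 among them. This held for 8.87% of all genes, and for 11 of the 44 other folding genes, BAG3 and CALR among them. Of the 9, DNAJA3, DNAJB12, DNAJC4, DNAJC9 and HSPB6 had 0 counts in LacZ PD 1 and CyCoNP PD levels under its limit of 94.0 CPM. Their place above LacZ PD 1 can therefore not be read, and the same limit applies to the other folding genes and to all genes. Before normalisation CCT5, DNAJB11 and HSPD1 did not lie above all LacZ PD libraries either. CCT5 had 318 and 278 CPM in CyCoNP PD and 530 and 278 CPM in LacZ PD. DNAJB11 had 97.9 and 128 CPM in CyCoNP PD and 159 and 107 CPM in LacZ PD. DNAJC2 kept its place, with 368 and 992 CPM in CyCoNP PD and 106 and 107 CPM in LacZ PD.
CALR, an ER chaperone for glycoproteins, had 686 and 471 CPM in the input, 1301 and 2698 CPM in CyCoNP PD, and 533 and 440 CPM in LacZ PD, with a log2 fold change of 1.79 (SE 0.66, edgeR adjusted p = 0.702). The 6 prefoldin genes, which hand actin and tubulin to TRiC, had a median of 0.12 in CyCoNP PD against input, the 3 chaperonin co-factors 0.47 and the 10 ER folding genes 0.41. HSF1, the main heat shock transcription factor, had 48.1 and 87.3 CPM in the input and 57.2 and 48.5 CPM in CyCoNP PD, with a log2 fold change of -0.35 (SE 0.63).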

How the data were processed

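Gene counts of 6 Nanopore PCR-cDNA libraries of SK-N-BE cells were analysed, in 3 groups of 2 (input, CyCoNP PD, LacZ PD). Per the labels and methods, reads were aligned to GRCh38 with minimap2 2.24-r1122 and assigned to Ensembl 99 genes with Bambu without new isoforms, and reads under a length minimum were dropped beforehand. The authors deposited whole-number counts per gene without normalization. They also deposited CPM, which served here only to check the counts (largest difference 5.1e-11). Symbols, positions and transcripts came from GENCODE v44, which held 60357 of the 60676 entries.

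Genes with at least 10 counts in total (12565) were tested in one fit over the 6 libraries with edgeR 4.0.16 in R 4.3.3 (TMM, quasi-likelihood F test, Benjamini-Hochberg adjustment), and a call needed an adjusted p under 0.05 and a log2 fold change beyond 1 in size. The standard error came from the F statistic. Scripts were tested on simulated data with known changes in CyCoNP PD against input. Of 100 genes changed by a log2 of 4, edgeR called 86, edgeR with the block 80 and DESeq2 94. Of 100 genes changed by a log2 of 2, they called 7, 7 and 17. False calls numbered 12, 4 and 11. A gene that was not called can therefore still differ by a log2 of 2. Same-numbered libraries deviated together, with correlations across genes of 0.449 for input with CyCoNP PD, 0.269 for input with LacZ PD and 0.257 for CyCoNP PD with LacZ PD, so the replicate numbers were taken to pair the libraries from the data, and blocked values stand where they change a call. Between replicates, chi-square per degree of freedom was 9.97 in input, 8.54 in CyCoNP PD and 2.55 in LacZ PD, above sampling noise. Library totals ran from 18870 to 1512148 counts, so low levels in LacZ PD are imprecise.

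The chaperone genes and all lists were chosen with earlier results of these data known. Named genes were the 8 CCT genes, the 12 HSP and 10 DNAJ genes with most input counts, the 3 with the smallest p in each direction of each comparison and those called by edgeR, DESeq2 1.42.0 or edgeR with the block. DNAJB12, DNAJC4, DNAJC27, DNAJC30, HSPA13, HSPA4L, FAM149B1, HSPB2, HSPB6, HSPA1A, HSPA1B, BAG3, CALR, HSF1, COL1A1, LUM, DCN, PMPCB, PSMC2, the pseudogenes and the untested genes were named after their values were seen. Alternatives were other size factors, other count filters, DESeq2, only the 2 groups compared, the block and leaving out each library. Probe pairing was the longest exact complementary stretch with canonical transcripts.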

Additional observations from a re-analysis of the deposited data

How the results depend on the processing

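The other settings tried moved the counts of calls and the family medians as follows, and the cause was not tested. Enriched genes in CyCoNP PD numbered 1 of the chaperones in place of 0, both against input and against LacZ PD, with DESeq2, with no count filter, with the replicate block in edgeR and with the replicate block in DESeq2, and the gene was DNAJC2 each time. Of all genes, 0.444% and 0.265% were called enriched in these comparisons with no count filter, and 0.692% and 0.398% with the replicate block in DESeq2. Leaving out each library in turn, the log2 fold change of DNAJC2 in CyCoNP PD ran from 2.60 to 3.98 against input and from 2.27 to 3.90 against LacZ PD. These fits leave a group with 1 library, which is assumed to vary like the others, and are no replicate check of it. No alternative gave a depleted chaperone gene or an enriched one in LacZ PD (0 in each of 14 alternatives). In CyCoNP PD against input, leave-one-out medians of the log2 fold change ran from -0.55 to 0.048 for HSP, from -0.14 to 0.34 for DNAJ and from -0.079 to 0.44 for CCT genes.

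In LacZ PD against input the HSP median was -0.33 with library size alone, -0.38 with DESeq2, -1.20 with no count filter, -0.27 with filterByExpr and -0.45 with the replicate block in DESeq2, and -1.75 to -0.62 with libraries left out. The DNAJ median was 0.18 with library size alone, -0.00154 with DESeq2, -0.077 with filterByExpr and 0.015 with the replicate block in DESeq2 (-0.64 to 0.015 with libraries left out), and the CCT median was 0.51 with library size alone (-0.35 to 0.19 with libraries left out). In CyCoNP PD against LacZ PD the HSP median was 0.070 with library size alone and 0.26 with filterByExpr, and 0.29 to 1.66 with libraries left out. The DNAJ median there was 0.21 with DESeq2's size factors, -0.18 with library size alone, 0.068 with DESeq2, 0.24 with the replicate block in edgeR and 0.00717 with it in DESeq2 (0.00191 to 0.81 with libraries left out). The CCT median was -0.37 with library size alone and -0.00481 with the replicate block in DESeq2 (0.083 to 0.42 with libraries left out). With library size alone the DNAJ median changed sign in both LacZ PD comparisons and the CCT median in CyCoNP PD against LacZ PD. The order of the families changed under other settings. In CyCoNP PD against input DNAJ was above CCT with no count filter (0.18 and 0.16), with filterByExpr (0.31 and 0.20) and with the replicate block in edgeR (0.24 and 0.22) and DESeq2 (0.18 and 0.13). In CyCoNP PD against LacZ PD DNAJ was above HSP with filterByExpr (0.31 and 0.26) and without LacZ PD replicate 1 (0.68 and 0.45), and below CCT without either CyCoNP PD library. In LacZ PD against input it was above CCT without input replicate 2.

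Of 1588 values of named genes under the alternatives, 12 passed the threshold where the value reported above did not. All were of DNAJC2, some from fits with 1 library in a group. Of the 1588, 142 had the other sign, none of them with both values beyond 1 SE from 0. The replicate block changed no other call among the chaperone genes. With 2 libraries a group, a single library can decide a value.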
